A study of Mus musculus with 13 samples.

Results

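The Ikaros family of zinc finger transcription factors was followed in 3 compartments of common lymphoid progenitors (CLP). These are rare cells of the bone marrow that give rise to B, T and other lymphocytes. The family was taken as the genes Ikzf1 to Ikzf5, and all 5 were found among the 24072 identifiers of the count files. All cells came from bone marrow of WT C57BL/6 mice and had no other treatment named. They were sorted by flow cytometry on the surface proteins Ly6D, which appears on progenitors turning toward the B lineage, and Gfra2, a receptor subunit for a neuronal growth factor. The RNA libraries number 3 for the Ly6D+Gfra2+ compartment, 4 for Ly6D+Gfra2- and 6 for Ly6D-Gfra2-. The ages and numbers of mice, and whether libraries came from separate animals, are not given, so p-values measure the spread between these libraries, which may be technical.

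Ikaros proteins bind DNA through zinc fingers near their start and pair with each other through fingers near their end, so each member can work alone or in mixed pairs. They recruit chromatin remodelling and repressor complexes, and Ikaros itself is needed for the formation of lymphocytes. Ikzf1 encodes Ikaros, Ikzf2 Helios, Ikzf3 Aiolos, Ikzf4 Eos and Ikzf5 Pegasus. Helios is known from blood stem cells and from T cells, Aiolos from maturing B and T cells, and Eos from regulatory T cells.

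The members share sequence in the pairing fingers, which is shown here for Ikzf1, Ikzf2 and Ikzf5 because counts of close relatives can be mixed where reads match both genes. The fingers below are the last that the pattern of paired cysteines and histidines finds in each of these coding sequences, read 5′ to 3′ on the coding strand of the mm10 genome. Each has 63 bases, and capitals mark bases that differ from Ikzf1. They lie at chr11:11769411-11769473 on the plus strand for Ikzf1, and on the minus strand at chr1:69538870-69538932 for Ikzf2 and chr7:131391739-131391801 for Ikzf5.
Ikzf1: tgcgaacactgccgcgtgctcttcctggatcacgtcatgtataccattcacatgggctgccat
Ikzf2: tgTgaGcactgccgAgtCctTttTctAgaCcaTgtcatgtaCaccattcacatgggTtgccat
Ikzf5: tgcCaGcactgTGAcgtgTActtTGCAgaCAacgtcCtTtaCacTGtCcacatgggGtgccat
The Ikzf2 finger was 82.5% identical to that of Ikzf1, and the Ikzf5 finger 68.3%. Over the whole transcripts, the longest run of bases shared by a pair of members was 32, between Ikzf2 and Ikzf4, and for the other pairs it lay between 15 and 26. Read length is not given, so how many reads could match more than 1 member was not tested. The strand used in counting is not given either. In the annotation, exons of Pstk on the opposite strand cover 80.7% of the Ikzf5 transcript, so reads of the 2 genes cannot be told apart there. The same overlap with opposite-strand genes covers 1.55% of the Ikzf2 transcript and 0.718% of that of Ikzf4.

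The libraries held 6892728 to 23705975 counts over 10837 to 13969 genes with at least 1 count. The sort markers followed the labels in most libraries. Levels are given as counts per 1000000 (CPM). Ly6d stood at 171, 283 and 205 CPM in Ly6D+Gfra2+ libraries, between 158 and 506 CPM in Ly6D+Gfra2- and between 0.622 and 8.29 CPM in 5 libraries of Ly6D-Gfra2- cells. The exception was the library labelled Ly6D-Gfra2- replicate 3, where it reached 213 CPM. That library also had sums of 137 CPM for B lineage markers and 1339 CPM for plasmacytoid dendritic cell markers, each the highest of its group. Gfra2 was at 286 to 514 CPM in Ly6D+Gfra2+ libraries, and at 0.195 to 14.7 CPM in Ly6D+Gfra2- and 0 to 5.49 CPM in Ly6D-Gfra2- libraries. The markers of the labelled cell type, Il7r, Flt3, Kit, Cd27, Dntt and Rag1, summed to 5039 to 8182 CPM over the 13 libraries. Cd3g, a subunit of the T cell receptor complex, was at 0 in all Ly6D+Gfra2+ and Ly6D+Gfra2- libraries. Other genes of the same marker list had counts there. Cd3e reached 0.973 CPM and Cd3d 0.811 CPM in Ly6D+Gfra2- libraries. Cd4 reached 34.3 CPM in Ly6D+Gfra2- replicate 1 and Il2ra 8.97 CPM in Ly6D+Gfra2+ replicate 5. Foxp3 had 4.06 to 43.5 CPM over the 13 libraries. The titles begin their sample codes with P or T, here called the prefix, and do not explain it. All Ly6D+Gfra2+ libraries have prefix T, and replicates 1 to 3 of the other groups have prefix P.

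Ikzf1 was the dominant member in every library, with group means between 1434 and 1577 CPM. Set per kilobase of transcript, it averaged 297 CPM per kilobase over the 13 libraries, which placed it in the top 0.606% of the 12533 tested genes with a known length. It was followed by Ikzf5 at 4.60, Ikzf2 at 4.0, Ikzf3 at 0.573 and Ikzf4 at 0.275 CPM per kilobase. Ikzf1 made up 98.9% to 99.2% of the family's summed level per kilobase in Ly6D+Gfra2+ libraries, against 95.9% to 97.8% in Ly6D+Gfra2- and 94.2% to 97.3% in Ly6D-Gfra2- libraries. The order of the next members varied. Ikzf2 lay above Ikzf5 per kilobase in 0 of 3 Ly6D+Gfra2+ libraries, 2 of 4 Ly6D+Gfra2- libraries and 5 of 6 Ly6D-Gfra2- libraries, and the count in Ly6D+Gfra2- became 3 of 4 when coding length was used.

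**Figure D1:**
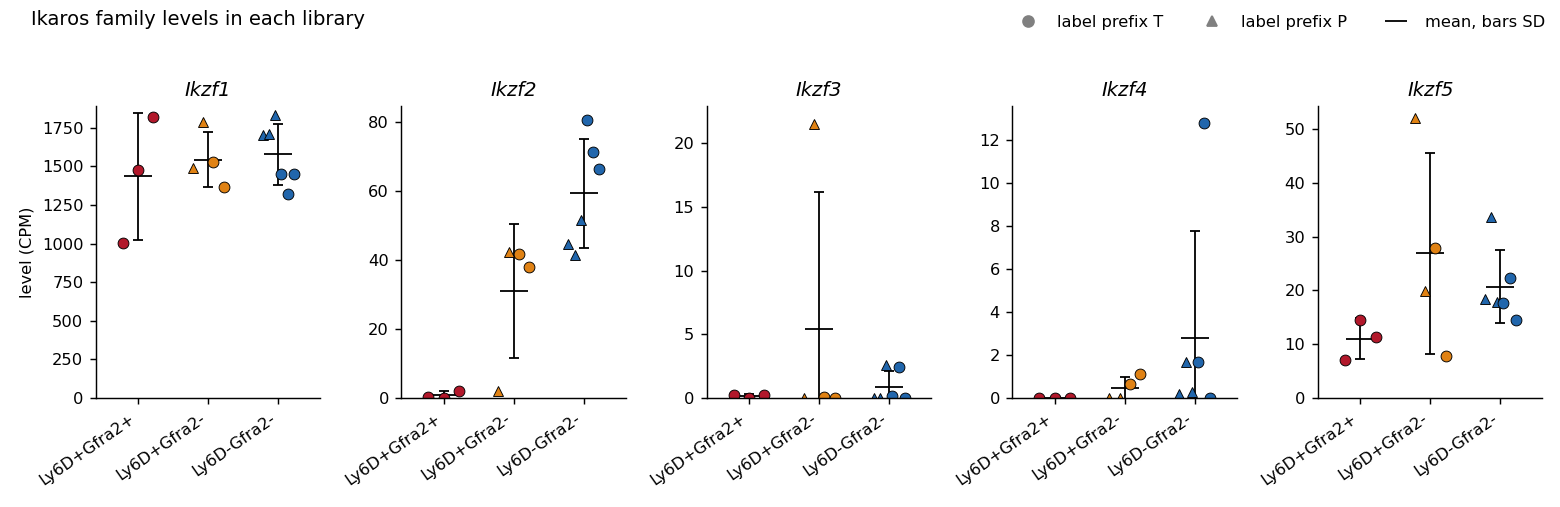
Level of each family member in CPM (vertical axes from 0, each gene on its own linear scale) in the 13 libraries by sorted compartment. Points are libraries, circles have label prefix T and triangles prefix P, and the black marks and bars are the mean and SD. Ikzf2 does not exceed 2.06 CPM in any Ly6D+Gfra2+ library and spans 41.4 to 80.6 CPM among the 6 Ly6D-Gfra2- ones.

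Differences were tested with the quasi-likelihood test of edgeR in 1 fit of all 13 libraries with a term for the prefix, and a gene was called at a Benjamini-Hochberg adjusted p under 0.05 over the 12722 genes that passed the filter on low counts, all 5 members among them. Fold changes are log2 values, first group minus second. Between Ly6D+Gfra2+ and Ly6D-Gfra2- cells 1.39% of genes were called, 118 higher and 59 lower, and 1 of the 5 members was among them. Scaled by library size alone, that split was 45 higher and 66 lower, with the median of all genes shifted by -0.26. Between Ly6D+Gfra2+ and Ly6D+Gfra2- cells 0.409% were called, 26 higher and 26 lower, or 15 higher and 33 lower by library size alone with a shift of -0.17, and again 1 member was among them. Both of these comparisons use the same Ly6D+Gfra2+ libraries. Between Ly6D+Gfra2- and Ly6D-Gfra2- cells 0% were called by edgeR, against 52 genes by DESeq2 and 1 by limma voom, and 16 genes, all higher, were called by edgeR without the library labelled Ly6D-Gfra2- replicate 3. There 599 genes had an unadjusted p under 0.05, and none of the members was called by edgeR.

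Ikzf2, which encodes Helios, was the member called in both comparisons. It had 0.343, 0 and 2.06 CPM in Ly6D+Gfra2+ replicates 4, 5 and 6, which together held 22 counts. Ly6D+Gfra2- replicates 1, 2, 5 and 6 had 1.88, 42.3, 41.7 and 37.9 CPM. Ly6D-Gfra2- replicates 1 to 6 had 44.7, 41.4, 51.7, 80.6, 71.5 and 66.5 CPM. The Ly6D+Gfra2+ libraries were therefore all under every Ly6D-Gfra2- library, and they overlapped the Ly6D+Gfra2- group through replicate 1 of that group, which was as low as they were. Mean levels were 0.800 ± 1.10 CPM in Ly6D+Gfra2+ (SD, n = 3), 30.9 ± 19.5 CPM in Ly6D+Gfra2- (n = 4) and 59.4 ± 15.8 CPM in Ly6D-Gfra2- cells (n = 6). In bulk RNA, fewer cells that express a gene and less RNA per cell cannot be told apart.

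In Ly6D+Gfra2+ cells Ikzf2 was lower than in Ly6D-Gfra2- cells by a log2 fold change of -6.51 (SE 1.15, 95% interval -8.93 to -4.09, edgeR adjusted p = 0.0108), about 91.2-fold. Genes called and lower made up 0.464% of those tested there, and for 6.19% of genes every Ly6D+Gfra2+ library lay under every Ly6D-Gfra2- library. The call held without each of the 13 libraries in turn, with fold changes of -8.67 to -5.94, and among prefix T libraries alone (-6.47, edgeR adjusted p = 0.0279). It was missed by limma voom (-6.94, adjusted p = 0.0786).

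Against Ly6D+Gfra2- cells Ikzf2 fell by 5.55 on the log2 scale in Ly6D+Gfra2+ cells (SE 1.12, 95% interval -7.90 to -3.19, edgeR adjusted p = 0.0428), where 0.204% of genes were called and lower. This call was less firm. It held without Ly6D+Gfra2- replicate 1 (edgeR adjusted p = 0.0102) and without Ly6D+Gfra2+ replicate 6 (edgeR adjusted p = 0.019), and it was missed without each of the other 11 libraries, with edgeR adjusted p-values up to 0.12. It was also missed among prefix T libraries alone (-5.60, edgeR adjusted p = 0.116), with only the 2 groups in the fit (-5.61, edgeR adjusted p = 0.793) and by limma voom (-6.06, adjusted p = 0.242). With the library labelled Ly6D-Gfra2- replicate 3 and Ly6D+Gfra2- replicate 1 both left out, a choice made after seeing the data, the edgeR adjusted p was 0.0162 (log2 fold change -5.80) against Ly6D+Gfra2- and 0.00435 (-6.35) against Ly6D-Gfra2- cells.

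Between Ly6D+Gfra2- and Ly6D-Gfra2- cells the Ikzf2 difference was -0.96 (SE 0.72, 95% interval -2.49 to 0.56, edgeR adjusted p = 0.999) and was not called. It was not called without any 1 library either, and stood at -0.57 without Ly6D+Gfra2- replicate 1 and at -1.81 without Ly6D+Gfra2- replicate 2. Within prefix T the levels were 37.9 and 41.7 CPM in Ly6D+Gfra2- and 66.5 to 80.6 CPM in Ly6D-Gfra2- libraries, with a log2 fold change of -0.87 that was not called (edgeR adjusted p = 0.9999). Within prefix P they were 1.88 and 42.3 CPM in Ly6D+Gfra2- and 41.4 to 51.7 CPM in Ly6D-Gfra2- libraries, with a log2 fold change of -1.05 that was not called (edgeR adjusted p = 0.885). The difference between these prefix values, 0.18, was not called (edgeR interaction test, adjusted p = 0.982).

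The 4 libraries with Ikzf2 under 3 CPM were also the 4 with the fewest genes detected. They held 10837 to 12369 genes with a count, against 12904 to 13969 in the other 9 libraries. Granulocyte and monocyte markers summed to 175 to 433 CPM in Ly6D+Gfra2+, 364 to 562 CPM in Ly6D+Gfra2- and 574 to 1360 CPM in Ly6D-Gfra2- libraries, and to 477 CPM in Ly6D+Gfra2- replicate 1, where Ikzf2 was low. Mpo, the peroxidase of granulocyte precursors, averaged 239 CPM in Ly6D+Gfra2+ cells, 409 CPM in Ly6D+Gfra2- cells and 791 CPM in Ly6D-Gfra2- cells. None of the 5 tested markers of this list was called between Ly6D+Gfra2+ and Ly6D+Gfra2- cells. Lyz2, a lysozyme, averaged 89.6 CPM in Ly6D+Gfra2+ cells and 52.4 CPM in Ly6D+Gfra2- cells, and Ngp, a granule protein gene, was at 0 in all Ly6D+Gfra2+ libraries. Of the 1419 counts of Ngp, 1367 lay in Ly6D-Gfra2- replicate 5. Ngp was also at 0 in several libraries of the other groups and did not pass the filter on low counts. Plasmacytoid dendritic cell markers summed to 167 to 345 CPM in Ly6D+Gfra2+, 992 to 1249 CPM in Ly6D+Gfra2- and 297 to 1339 CPM in Ly6D-Gfra2- libraries, and none of the 5 was called in any comparison. B lineage markers had sums of 1152 to 1166 CPM in Ly6D+Gfra2+, 96.9 to 179 CPM in Ly6D+Gfra2- and 9.25 to 137 CPM in Ly6D-Gfra2- libraries, and of the 6 markers Ms4a1 was at 0 throughout. Of 5 tested genes in each list, 2 granulocyte and monocyte markers were called lower and 3 B lineage markers higher in Ly6D+Gfra2+ against Ly6D-Gfra2- cells. There 1.39% of all genes were called, and 0.464% were called and lower. The 2 lower markers were Mpo and S100a9, and 2137 of the 2373 counts of S100a9 lay in Ly6D-Gfra2- replicate 5. In Ly6D+Gfra2- replicate 1 the B lineage sum was 179 CPM, the highest of its group. Its plasmacytoid dendritic cell sum, 992 CPM, was the lowest of the group, and its T lineage sum, 62.3 CPM, the highest. The part of any of these lists in the Ikzf2 result was not tested. T lineage markers summed to between 11 and 52.6 CPM in Ly6D+Gfra2+, 8.52 to 62.3 CPM in Ly6D+Gfra2- and 20.5 to 45.3 CPM in Ly6D-Gfra2- libraries, and the defining Cd3 genes were at or near 0 in all of them.

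**Figure D2:**
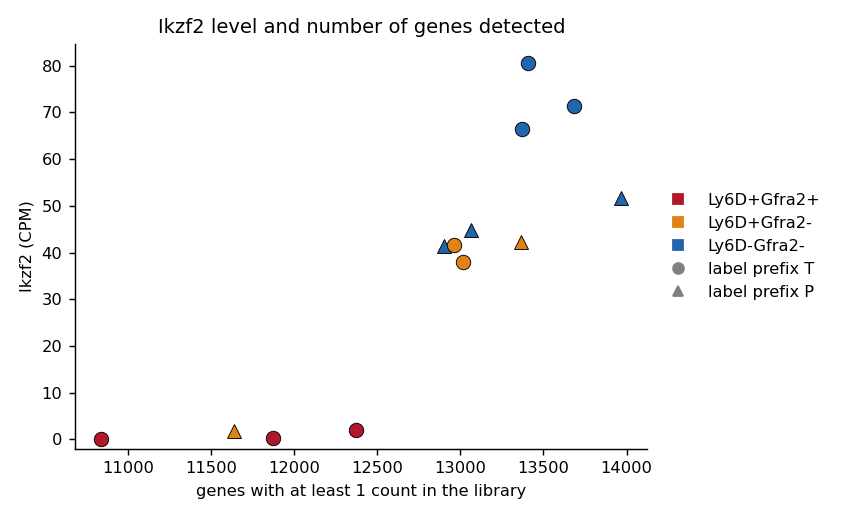
Ikzf2 level in CPM (vertical axis) against the number of genes with at least 1 count (horizontal axis) in each of the 13 libraries, coloured by compartment, with circles for prefix T and triangles for prefix P. The 3 Ly6D+Gfra2+ libraries and Ly6D+Gfra2- replicate 1 sit at the lower left, with 10837 to 12369 genes and at most 2.06 CPM.

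The genes whose levels were most like Ikzf2 over the 13 libraries, by Pearson r of log2 CPM among 10409 genes, were Cnnm4 (r = 0.97), Lcp2 (0.96), Cox6b2 (0.95), Mmp24 (0.94) and Map7d3 (0.94). Lcp2 encodes SLP-76, an adaptor of T cell and platelet receptors, and Cnnm4 a magnesium transporter. Each was low in the same 4 libraries, which follows from their choice by r over these libraries. Lcp2 had 0.114 to 8.22 CPM in those 4 and 30.6 to 129 CPM in the other 9, and Cnnm4 had 0.120 to 2.85 CPM against 14.7 to 49.9 CPM. Cox6b2 had 0 to 2.92 CPM against 5.94 to 28.5 CPM. Mmp24 had 0 to 0.216 CPM against 3.08 to 20.6 CPM, and Map7d3 0 to 0.216 CPM against 1.01 to 14.5 CPM. Of the 5 genes Cnnm4 alone was called between Ly6D+Gfra2+ and Ly6D-Gfra2- cells (log2 fold change -4.81, edgeR adjusted p = 0.0371). The edgeR adjusted p of the others lay between 0.0627 and 0.102, and 1.39% of all genes were called there. Because the 5 were chosen for likeness to Ikzf2, itself called there, this is no separate result. These correlations are descriptions over libraries that differ in depth and in the number of genes detected.

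**Figure D3:**
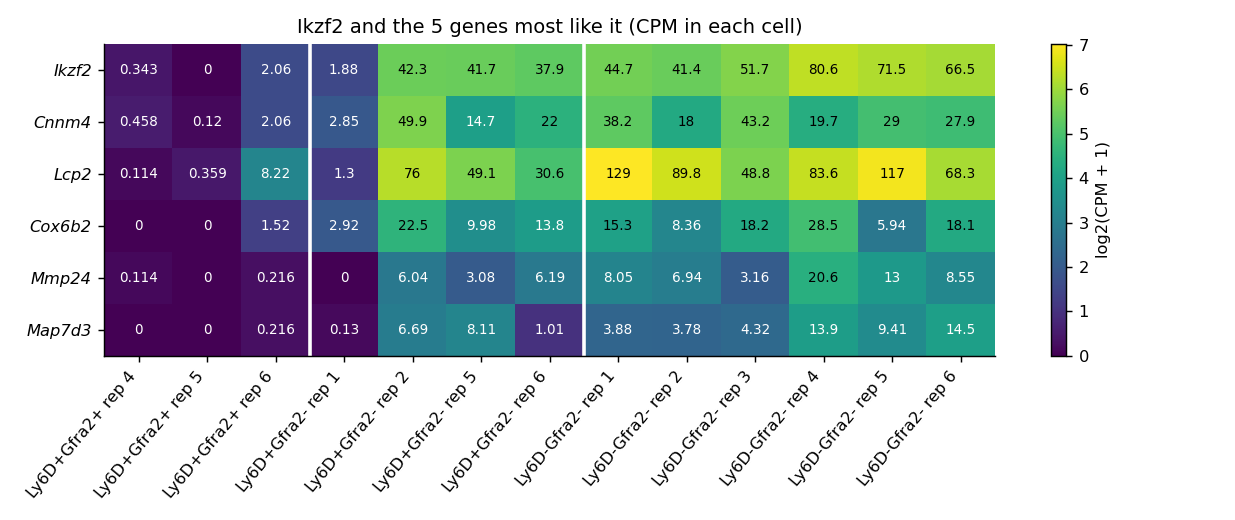
CPM of Ikzf2 and of the 5 genes most like it (rows) in each library (columns, grouped by compartment and divided by white lines), with colour for log2(CPM + 1). All 6 rows are dark in the 3 Ly6D+Gfra2+ libraries and in Ly6D+Gfra2- replicate 1, where Lcp2 is at 1.30 CPM and Ikzf2 at 1.88 CPM.

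Ikzf1, the Ikaros gene, was not called in any comparison, and its intervals were narrow. It had 1002, 1479 and 1822 CPM in Ly6D+Gfra2+ libraries. Ly6D+Gfra2- replicates 1, 2, 5 and 6 had 1487, 1787, 1528 and 1368 CPM, and Ly6D-Gfra2- libraries ranged from 1322 to 1835 CPM with a median of 1576 CPM. The groups overlapped, and the spread was widest in Ly6D+Gfra2+ cells, at 1434 ± 412 CPM (SD, n = 3), against 1543 ± 177 CPM in Ly6D+Gfra2- (n = 4) and 1577 ± 199 CPM in Ly6D-Gfra2- cells (n = 6). The log2 fold change in Ly6D+Gfra2+ cells was 0.03 against Ly6D+Gfra2- cells (95% interval -0.36 to 0.41) and 0.00060 against Ly6D-Gfra2- cells (95% interval -0.37 to 0.37), and by library size alone these were -0.15 and -0.26. Between Ly6D+Gfra2- and Ly6D-Gfra2- cells it was -0.03 (95% interval -0.33 to 0.28). Within Ly6D-Gfra2- cells the prefix P libraries had 1701 to 1835 CPM and the prefix T libraries 1322 to 1450 CPM. The 5 genes most like Ikzf1 were Anapc2, Dnpep, Stom, Calhm2 and Zfp1, with r of 0.85 to 0.89.

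**Figure D4:**
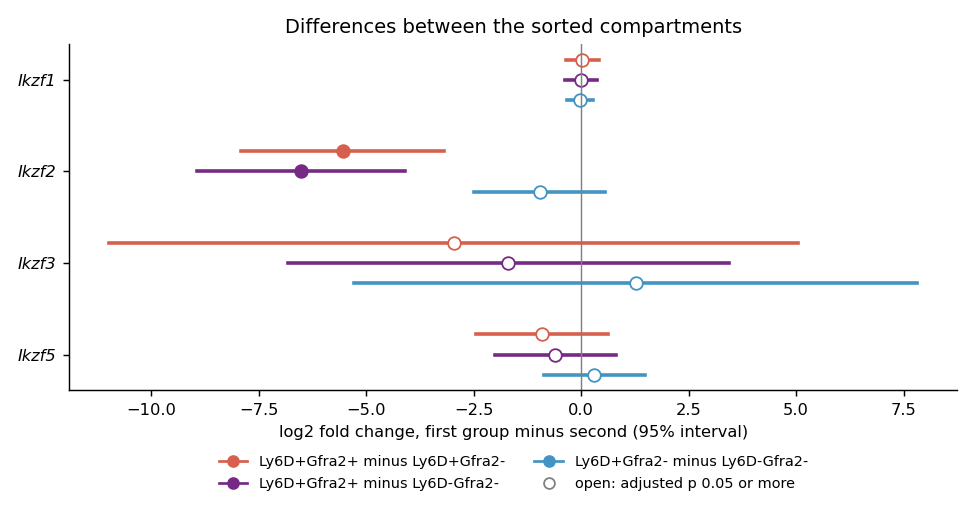
Log2 fold change (horizontal axis, first group minus second) of Ikzf1, Ikzf2, Ikzf3 and Ikzf5 in the 3 comparisons, with 95% intervals of the edgeR fit and filled points for an adjusted p under 0.05. Ikzf2 alone has filled points, at -5.55 and -6.51, and Ikzf3 has the widest intervals. Ikzf4 is left out because it had no count in Ly6D+Gfra2+ libraries.

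Ikzf3, which encodes Aiolos, was near the detection limit in nearly all libraries. It had 0.229, 0 and 0.216 CPM in Ly6D+Gfra2+ libraries, which is 4 counts together. Ly6D+Gfra2- replicates 1, 2, 5 and 6 had 0, 21.6, 0.0932 and 0 CPM, so that 425 of the 426 counts of that group came from replicate 2. Ly6D-Gfra2- libraries had 0 to 2.62 CPM, with counts in 3 of the 6. The groups overlapped, and no difference was called (log2 fold change -2.96 in Ly6D+Gfra2+ against Ly6D+Gfra2-, 95% interval -10.97 to 5.05). Without Ly6D+Gfra2- replicate 2, the mean of that group was 0.0311 CPM. In that replicate the B lineage markers summed to 96.9 CPM, the lowest of its group, and the T lineage markers to 16.5 CPM. The same replicate had the highest Gfra2 level of its group, 14.7 CPM against at most 4.56 CPM in the other libraries of the group, and 144 counts of Klf1, an erythroid factor gene that was at 0 in those libraries. The part of these in its Ikzf3 level was not tested.

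Ikzf4, which encodes Eos, had no count in the 3 Ly6D+Gfra2+ libraries, where 3 counts would stand at 0.325 to 0.359 CPM. It had 0, 0, 0.653 and 1.12 CPM in Ly6D+Gfra2- replicates 1, 2, 5 and 6. Ly6D-Gfra2- replicates 1 to 6 had 0.199, 1.69, 0.292, 1.66, 12.8 and 0 CPM, so that 155 of the 215 counts of the group came from replicate 5. Neither difference of Ly6D+Gfra2+ cells was called, against Ly6D+Gfra2- (edgeR adjusted p = 0.369) or Ly6D-Gfra2- cells (edgeR adjusted p = 0.145). Set against a floor of 3 counts over the group, the pooled counts gave bounds of at least 2.84-fold and 23.2-fold lower. These bounds cover counting error and leave out the spread between libraries. Both other groups also held libraries at 0, so the bounds give no minimum difference between the cell groups. The bound against Ly6D-Gfra2- cells was 7.61-fold without replicate 5 of that group. With all 13 libraries, that replicate among them, DESeq2 called the difference from Ly6D-Gfra2- cells (adjusted p = 0.0102). Replicate 5 also had the highest erythroid marker sum, 379 CPM, and the highest granulocyte and monocyte sum, 1360 CPM, whose part in its Ikzf4 level was not tested. Dusp28, a phosphatase gene and the gene most like Ikzf4 (r = 0.80), had 62.2 CPM in the same library.

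Ikzf5, which encodes Pegasus, a more distant relative that recognises another DNA sequence than Ikaros, was low but detected in every library. It had 6.98, 14.6 and 11.4 CPM in Ly6D+Gfra2+ libraries. Ly6D+Gfra2- replicates 1, 2, 5 and 6 had 52.0, 19.9, 27.9 and 7.81 CPM, and Ly6D-Gfra2- libraries had 14.5 to 33.7 CPM with a median of 18.1 CPM. The groups overlapped, and the differences were not called, with log2 fold changes of -0.91 (SE 0.73) for Ly6D+Gfra2+ against Ly6D+Gfra2-, -0.60 (SE 0.67) against Ly6D-Gfra2-, and 0.31 (SE 0.55) for Ly6D+Gfra2- against Ly6D-Gfra2- cells. Pstk, whose exons overlap it, had 0 to 6.22 CPM in Ly6D+Gfra2+, 2.92 to 6.53 CPM in Ly6D+Gfra2- and 1.07 to 19.6 CPM in Ly6D-Gfra2- libraries. Among the genes most like Ikzf5 were Rbbp7 (r = 0.87), a histone-binding subunit of the NuRD complex, and Smu1 (0.86).

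Complexes that Ikaros proteins recruit were followed through their subunits. Of 15 tested subunits of the nucleosome remodelling and deacetylase complex NuRD, 1 rose in Ly6D+Gfra2+ against Ly6D-Gfra2- cells, where 1.39% of all genes were called, and none passed in either other comparison. That subunit was Mta3, known from its work with Bcl6 in germinal centre B cells, at 746 ± 141 CPM in Ly6D+Gfra2+ (SD, n = 3), 449 ± 113 CPM in Ly6D+Gfra2- (n = 4) and 308 ± 47.8 CPM in Ly6D-Gfra2- cells (n = 6). Its log2 fold change was 1.46 against Ly6D-Gfra2- cells (SE 0.20, edgeR adjusted p = 0.00173) and 0.92 against Ly6D+Gfra2- cells (edgeR adjusted p = 0.0784). The list's median fold change was 0.07 against Ly6D-Gfra2- cells, beside 0.01 over all genes tested. Chd3 and Mta2, the other subunits with the smallest p against Ly6D+Gfra2- cells, stood at -0.61 and 0.39 there. Of 10 other corepressor and remodelling genes, 2 rose against Ly6D-Gfra2- cells, beside the same 1.39% of all genes. Sin3a, a scaffold of histone deacetylase complexes, stood at 1.05 (SE 0.25, edgeR adjusted p = 0.0476), and Smarca4, the ATPase of SWI/SNF remodellers, at 1.07 (SE 0.24, edgeR adjusted p = 0.0336). The median of the 10 was 0.43 there, and Smarcd1, a SWI/SNF subunit, had 1.12 against Ly6D+Gfra2- cells and was not called.

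Genes that act on Ikaros proteins were not called. None of the 5 genes of the cereblon ubiquitin ligase, which degrades Ikaros and Aiolos in human cells treated with thalidomide analogs, passed in any comparison. Their median was -0.54 for Ly6D+Gfra2+ against Ly6D-Gfra2- cells, and Crbn itself had 31.4 ± 16.2 CPM in Ly6D+Gfra2+ (SD, n = 3), 43.4 ± 13.3 CPM in Ly6D+Gfra2- (n = 4) and 47.9 ± 12 CPM in Ly6D-Gfra2- cells (n = 6). Cul4a and Cul4b, the scaffolds of the ligase, both stood at -0.18 against Ly6D+Gfra2- cells. None of 8 kinase and phosphatase genes passed either, with a median of 0.57 for Ly6D+Gfra2+ against Ly6D-Gfra2- cells. Of these, Btk, a B cell kinase, had 0.93, Ppp1ca 0.87 and Ppp1cb 0.45 against Ly6D+Gfra2- cells.

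Several genes described as bound or regulated by Ikaros or Aiolos in lymphoid cells rose in Ly6D+Gfra2+ cells. Of 19 tested, 8 were called higher and 0 lower against Ly6D-Gfra2- cells, where 1.39% of all genes were called. Against Ly6D+Gfra2- cells 3 were called higher and 0 lower, where 0.409% of all genes were called. The other 11 and 16 were not called. Among them were Dntt (log2 fold changes 0.07 and -0.04) and Flt3 (-0.07 and -0.11). The list median was 1.19 and 0.95 in these comparisons, beside 0.01 and 0.03 over all genes tested. None passed between Ly6D+Gfra2- and Ly6D-Gfra2- cells, where the median was 0.68. Rag1, of the V(D)J recombinase, had 1308 ± 77.0 CPM in Ly6D+Gfra2+ (SD, n = 3), 189 ± 30.8 CPM in Ly6D+Gfra2- (n = 4) and 93.3 ± 66.7 CPM in Ly6D-Gfra2- cells (n = 6), a log2 fold change of 2.98 (edgeR adjusted p = 0.00649) and 4.03 (edgeR adjusted p = 0.000166). Igll1, of the surrogate light chain, had 65.7 to 164 CPM in Ly6D+Gfra2+ libraries. It had 1 count in all Ly6D+Gfra2- libraries together, a ratio of pooled counts of 6007 with a 95% counting interval of 1077 to 237332. That interval leaves out the spread between libraries, and edgeR called the difference (adjusted p = 0.0314). Igll1 had 13 counts in Ly6D-Gfra2- libraries, of which 12 lay in replicate 5. Its log2 fold change against Ly6D-Gfra2- cells was 8.14 (SE 1.26, edgeR adjusted p = 0.00881), and 10.63 without that replicate (edgeR adjusted p = 0.0109).

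The others called against Ly6D-Gfra2- cells were Ebf1 at 4.66 and Foxo1 at 2.97, both transcription factors of B cell specification, Blnk at 2.37, an adaptor of the B cell receptor, Il7r at 1.19, Rag2 at 1.19 and Vpreb1 at 7.42. Foxo1 was also called against Ly6D+Gfra2- cells (1.82, edgeR adjusted p = 0.0471). Several of these, among them Ebf1, Vpreb1, Il7r and Rag1, are also markers of the B lineage or of CLP, whose sums are given above, and their part in the count was not tested. Of 9 factors known to work beside Ikaros in lymphoid priming, 3 rose against Ly6D-Gfra2- cells, where 1.39% of all genes were called. These were Ebf1, Foxo1 and Myb (0.82, edgeR adjusted p = 0.0231), and Ebf1 and Foxo1 are also among the described targets. The list median was 0.51 there, beside 0.01 over all genes tested.

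Of the 12 partner, target and priming genes called against Ly6D-Gfra2- cells, 5 were called whichever library was left out, and these were Mta3, Rag1, Blnk, Foxo1 and Ebf1. Among prefix T libraries alone 7 of the 12 were called. Igll1 was missed only without Ly6D-Gfra2- replicate 4. Il7r and Myb were missed without Ly6D-Gfra2- replicates 4, 5 or 6, and also Il7r without Ly6D+Gfra2+ replicate 4 and Myb without Ly6D+Gfra2+ replicate 5. Smarca4 was missed without Ly6D+Gfra2+ replicate 6, Ly6D+Gfra2- replicates 2 or 6, or Ly6D-Gfra2- replicates 1, 4, 5 or 6. Sin3a was called only without Ly6D+Gfra2+ replicates 4 or 6 or Ly6D+Gfra2- replicate 1, Rag2 only without Ly6D+Gfra2+ replicate 5 or Ly6D+Gfra2- replicates 1 or 2, and Vpreb1 only without Ly6D+Gfra2+ replicate 6, Ly6D+Gfra2- replicate 2, or Ly6D-Gfra2- replicates 2 or 3. Against Ly6D+Gfra2- cells Rag1 was called without each of the 13 libraries. Foxo1 was called there only without Ly6D+Gfra2+ replicate 6, Ly6D+Gfra2- replicate 1 or Ly6D-Gfra2- replicate 3, and Igll1 was missed without Ly6D+Gfra2+ replicate 5 or Ly6D+Gfra2- replicates 5 or 6.

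**Figure D5:**
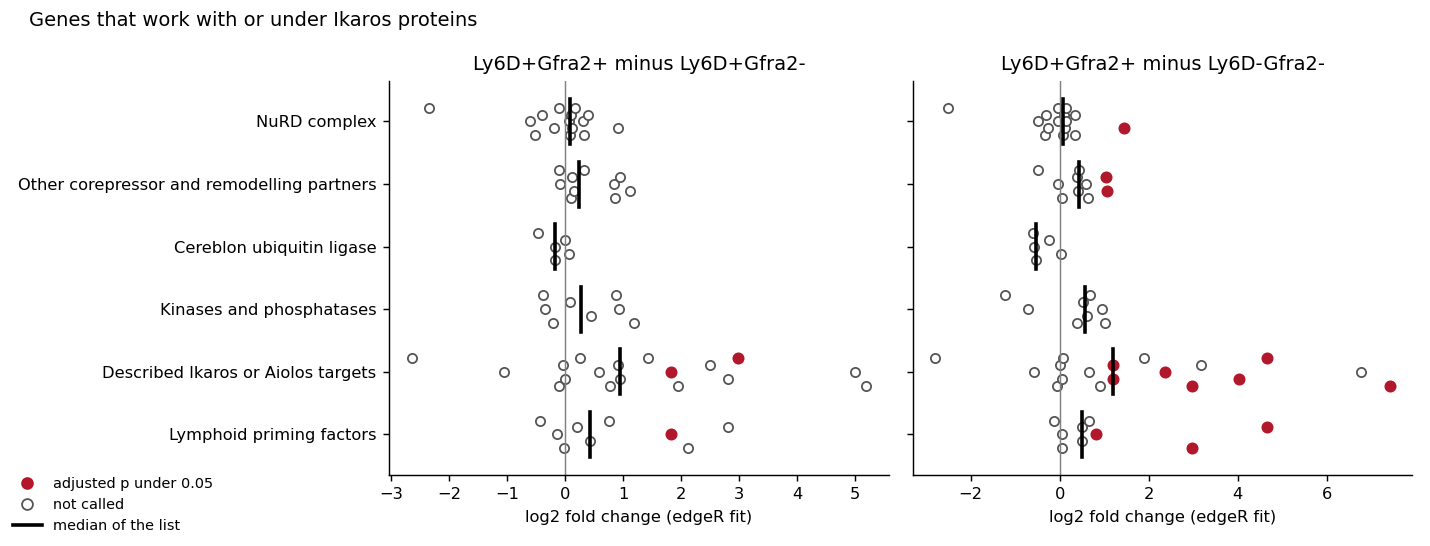
Log2 fold change (horizontal axes, first group minus second) of the tested genes of 6 lists of partners and targets of Ikaros proteins (rows), in Ly6D+Gfra2+ against Ly6D+Gfra2- (left) and against Ly6D-Gfra2- cells (right). Filled points were called, and bars mark each list's median, which is 0.95 and 1.19 for the described targets. Igll1 enters the medians but is drawn in neither panel. It was called in both, with 1 count in Ly6D+Gfra2- libraries and a log2 fold change of 8.14 against Ly6D-Gfra2- cells.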

How the data were processed

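RNA was sequenced in 13 libraries of sorted bone marrow CLP. The deposited values are raw counts per RefSeq identifier, per the file headers, with 1 file for each library. Per the submitters' processing notes, the build was mm10 and the tools included HISAT, TopHat, HOMER, DESeq and FastQC, with no role or version. The annotation version, strand setting and handling of reads with several matches are not given in the sources used here. Of 24072 identifiers, 23815 were named from the RefSeq gene table of GRCm38.p6 and 144 from GENCODE M21. Transcript lengths and sequences are those of GENCODE M21.

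The main test was the quasi-likelihood test of edgeR 4.0.16 (R 4.3.3), fitted once to all libraries with terms for group and label prefix, TMM scaling, and filterByExpr (minimum count 10, minimum total 15), which kept 12722 genes. Tests were two-sided, and calls used a Benjamini-Hochberg adjusted p under 0.05. CPM is counts per 1000000 of the TMM-scaled total. A gene at 0 in a group is given as a bound against 3 counts over the group, and a gene with 1 to 3 counts as a ratio with an exact 95% interval. These ratio intervals and bounds cover counting error only. The 95% intervals of log2 fold changes come from the edgeR fit and include the spread between libraries. Alternatives were DESeq2 1.42.0, limma 3.58.1 voom with quality weights, other scalings, filters and model terms, subsets by prefix, and each library left out. The code was tested on simulated data.

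The members and gene lists were chosen with earlier results of these data known. The text names all members, list genes that were called, the 3 of each list with the smallest p in Ly6D+Gfra2+ against Ly6D+Gfra2-, and the 5 genes most like each member (mean of at least 5 CPM), of which only some are given. No libraries agreed within sampling noise. Finger sequences of the other members are not reported here.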

Additional observations from a re-analysis of the deposited data

Results flagged for a closer look

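In groups of 4 or more libraries, the gap between the highest or lowest library and its nearest neighbour was compared with Dixon's critical value at the 95% level. Of 10 groups tested, 3 passed, and chance passes about 1 in 20. Ikzf2 was at 1.88 CPM in Ly6D+Gfra2- replicate 1, far below the other libraries of its group, which had 37.9 to 42.3 CPM. Without it the group mean was 40.6 ± 2.37 CPM (SD, n = 3).

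Ikzf3 was at 21.6 CPM in Ly6D+Gfra2- replicate 2, while the other 3 libraries of the group had at most 0.0932 CPM. Ikzf4 was at 12.8 CPM in Ly6D-Gfra2- replicate 5, against at most 1.69 CPM in the other 5 libraries of its group.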

How the results depend on the processing

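In Ly6D+Gfra2+ against Ly6D-Gfra2- cells the direction of Ikzf2 held in every alternative run, and the call was lost by limma voom (-6.94), where 0 members were called; DESeq2 called 2 members, with Ikzf4 (adjusted p = 0.0102) as the second. Against Ly6D+Gfra2- cells the direction of Ikzf2 held as well, but 0 members were called by limma voom (log2 fold change -6.06), with prefix T alone (-5.60), with only the groups compared (-5.61) and with the replicate block (-5.65). Leaving out 1 library at a time, Ikzf2 ranged from -7.71 to -4.98 there, with 0 to 1 members called. Same-numbered libraries deviated together weakly if at all, with correlations of -0.04 to 0.14 over 9 pairs, 1 pair over 0.1. Of 12 libraries, 4 were closest to their own number. The numbers were not taken as pairs, but such correlations cannot exclude pairing. Titles of prefix T carry unexplained codes that match the numbers. With the replicate block the edgeR adjusted p of Ikzf2 against Ly6D+Gfra2- cells was 0.109. That block gave 8 genes called in Ly6D+Gfra2- against Ly6D-Gfra2-, 25 in Ly6D+Gfra2+ against Ly6D+Gfra2- and 92 in Ly6D+Gfra2+ against Ly6D-Gfra2-.

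Counts of genes called moved most. For Ly6D+Gfra2- against Ly6D-Gfra2- they were 52 by DESeq2, 1 by limma voom, 9 with no filter on low counts, 1 with prefix T alone, 9 without both doubtful libraries (chosen after seeing the data), and 0 to 16 without 1 library. For Ly6D+Gfra2+ against Ly6D+Gfra2- they were 708 by DESeq2, 23 by limma voom, 164 with no filter, 103 with no prefix term, 9 with prefix T alone, 8 with only the groups compared, and 12 to 184 without 1 library. For Ly6D+Gfra2+ against Ly6D-Gfra2- they were 940 by DESeq2, 107 by limma voom, 111 by library size alone, 318 with no filter, 62 with prefix T alone, 72 with only the groups compared, and 49 to 372 without 1 library. The causes were not tested.

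Sign changes touched only differences that were not called. For Ikzf1 in Ly6D+Gfra2+ against Ly6D+Gfra2- they were -0.018 without both doubtful libraries, -0.15 by library size alone, -0.0026 by limma voom, -0.10 with no prefix term, -0.021 with prefix T alone, -0.011 with only the groups compared, and -0.18 to 0.22 without 1 library. Against Ly6D-Gfra2- they were -0.26 by library size alone, -0.0071 with no filter, -0.14 with no prefix term, -0.0089 with the replicate block, and -0.21 to 0.20 without 1 library. For Ikzf1 in Ly6D+Gfra2- against Ly6D-Gfra2- they were 0.051 without both doubtful libraries, 0.0087 by limma voom, 0.045 with prefix T alone, and -0.073 to 0.038 without 1 library. With the replicate block Ikzf3 stood at 1.22, 0.36 and -0.86 for Ly6D+Gfra2+ against Ly6D+Gfra2-, Ly6D+Gfra2+ against Ly6D-Gfra2- and Ly6D+Gfra2- against Ly6D-Gfra2-, at 0.51 for the second by limma voom, and at -0.18 to 2.46 for the third without 1 library. For Ikzf5 in Ly6D+Gfra2- against Ly6D-Gfra2- they were -0.15 without both doubtful libraries, -0.14 by limma voom, -0.024 with prefix T alone, -0.030 with the replicate block, and -0.10 to 0.62 without 1 library. Ikzf3 and Ikzf4 had 514 and 233 counts over the 13 libraries, of which 425 and 155 lay in 1 library each.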
